A study of Mus musculus with 6 samples.

Results

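A set of 9 genes that mark definitive and visceral endoderm, read by 17 probe sets, were followed in the 6 arrays of a study of Etv2. The members were found by the gene symbol of the array's annotation. They were 9 of the 18193 genes with a probe set of 1 symbol, and all 9 had at least 1. The definitive endoderm markers were Foxa1, Foxa2, Hhex and Cxcr4 with 1 probe set each and Sox17 with 2. The visceral endoderm markers were Apoe and Rbp4 with 1 probe set each, Ttr with 4 and Afp with 5.

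The cells came from the mouse ES cell line ER71 A17C, of strain 129P2/Ola, which carries a doxycycline-inducible Etv2 cassette (ER71 A2Lox.cre) in both groups. They were differentiated as embryoid bodies made in hanging drops, and Flk1-positive cells were sorted and collected at day 3.5. The 3 induced samples received doxycycline, 0.5 microg/ml, for the last 12 hours, beginning on day 3, while the 3 controls were untreated according to the series' design text. The treatment field of all 6 samples carries the doxycycline text, so the groups rest on the titles. All cells came from 1 line, and no doxycycline-treated line without the cassette was analysed here, so effects of the drug and of Etv2 cannot be told apart for any gene. Nothing in the labels says whether replicates were separate cultures, so p-values set group differences against a spread between samples that may be only technical.

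Definitive endoderm forms the gut and its organs and leaves the primitive streak during gastrulation next to mesoderm, under Nodal signals. Visceral endoderm is an earlier, extraembryonic layer that wraps the embryo, takes up nutrients and secretes carrier proteins much as the liver does later. Flk1, the VEGF receptor made from Kdr, marks early mesoderm with blood and endothelial potential, and several endoderm markers are shared with it: Sox17 is also a gene of arterial and haemogenic endothelium, Hhex of blood and endothelial precursors, and Cxcr4 of nascent mesoderm and endothelium. A level in these sorted cells therefore does not by itself name an endoderm cell. In bulk samples such as these, fewer cells of a type and less RNA per cell cannot be told apart.

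Etv2 stood at log2 levels of 9.92, 8.59 and 10.71 in controls 1, 2 and 3 and at 13.27, 13.28 and 13.36 in induced samples 1, 2 and 3, so every induced array lay above every control. Kdr, whose protein was the gate of the sort, stood at 10.02, 8.40 and 10.97 in the controls and at 9.56, 9.36 and 10.52 in the induced samples. Control 2 was the lowest array for Kdr and control 3 the highest, and the groups overlapped. Induced 2 stood apart in its value distribution, with a lower quartile of 6.06 against 5.96 to 6.01 in the other arrays. Its upper quartile was the lowest, at 9.13 against 9.20 to 9.27. Its array weight in limma was also the lowest, at 0.32 against 0.64 to 1.86. Mesoderm markers moved with Kdr: control 2 was the lowest control for 10 of 10 genes, and the mean level of the list ran from 8.52 to 10.01 in the controls and from 9.003 to 9.70 in the induced samples. Pluripotency genes went the other way, with control 2 the highest control for 8 of 10 and a mean level from 9.61 to 10.57 in the controls and from 9.99 to 10.30 in the induced samples.

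Upstream sequences are shown for Foxa1, the member gene whose brightest probe set separated the groups, and for Cxcr4 and Hhex, which varied together between arrays. Each line gives the 250 bases before the RefSeq transcription start in GRCm38.p6, read 5′ to 3′ on the gene's strand. Capitals mark the ETS core GGAA on either strand (TTCC on the printed one) and the forkhead motif TGTTTAC on either strand (GTAAACA on the printed one), and no marked motif overlaps another.
Foxa1, chr12:57546112-57546361, minus strand: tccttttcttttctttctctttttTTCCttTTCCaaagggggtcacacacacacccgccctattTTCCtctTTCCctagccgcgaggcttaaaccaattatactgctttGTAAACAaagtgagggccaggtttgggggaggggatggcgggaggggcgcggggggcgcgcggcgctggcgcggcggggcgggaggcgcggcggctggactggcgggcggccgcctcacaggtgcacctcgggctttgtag
Cxcr4, chr1:128592300-128592549, minus strand: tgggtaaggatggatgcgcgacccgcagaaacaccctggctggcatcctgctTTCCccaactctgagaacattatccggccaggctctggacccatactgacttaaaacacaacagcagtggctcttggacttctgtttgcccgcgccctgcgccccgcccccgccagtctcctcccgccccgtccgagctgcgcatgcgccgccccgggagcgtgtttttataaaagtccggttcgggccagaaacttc
Hhex, chr19:37434591-37434840, plus strand: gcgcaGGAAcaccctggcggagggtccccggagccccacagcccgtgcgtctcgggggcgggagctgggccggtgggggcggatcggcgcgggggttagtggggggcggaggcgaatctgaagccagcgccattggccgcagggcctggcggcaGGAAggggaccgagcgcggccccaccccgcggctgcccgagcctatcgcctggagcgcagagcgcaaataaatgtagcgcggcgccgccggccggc
The ETS core, the short element that factors of the Etv2 family bind, occurred 4 times upstream of Foxa1, once upstream of Cxcr4 and 2 times upstream of Hhex. Of 32851 promoter windows of the same length, 93.4% held at least 1 such core, with a median of 3 sites. Over the 12 windows counted for 7 members, with none counted for Sox17 or Ttr, 10 held the core. The longer form CCGGAA was in 1 of the 12, a window of Foxa2, and in 12.0% of all windows. The forkhead motif was in 2 of the 12, the one printed for Foxa1 and one of Rbp4, and in 3.17% of all windows. Such matches describe letters only.

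No member passed the test between induced and control samples. Of 17 member probe sets 0 had a limma adjusted p under 0.05, where 1 of all 45037 probe sets did (0.00222%), and each member's adjusted p was 0.9998. Etv2 itself, at a log2 fold change of 3.56 ± 0.46 (SE), did not pass either, with a limma adjusted p of 0.9998 and of 0.412 with the replicate block, so a miss at this threshold does not show that a member was unchanged. With the replicate number as a block the count was again 0 of 17, against 0 of all probe sets (0%). At an unadjusted p under 0.05 there was 1 member set, Foxa1, against 1.53% of all probe sets, and with the block there were 2, Foxa1 and Apoe, against 2.88%. Every induced array lay above every control for 2 of 17 member sets, against 2.72% of all probe sets, and below for 0 of 17, against 3.70%. The log2 fold change was positive for 13 of the 17 sets, against 51.2% of all probe sets, with a median of 0.071 beside 0.0029 over all probe sets. By the brightest set of each gene it was positive for 6 of 9 members, against 51.1% of all genes. Several sets read the same gene and are not independent.

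**Figure D1:**
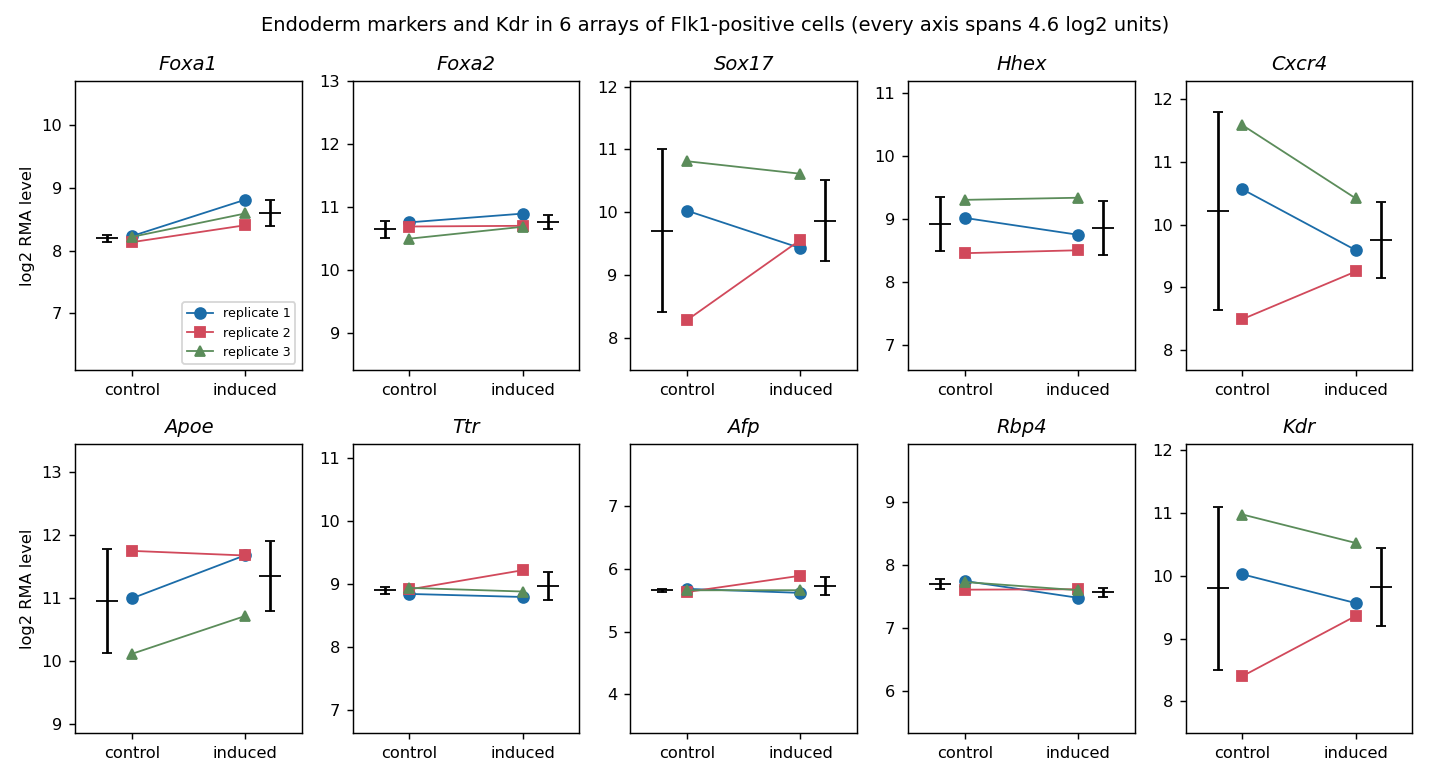
Log2 RMA level of the 9 markers (brightest probe set of each gene) and of Kdr in 3 control and 3 induced samples. Lines join samples of the same replicate number, black bars are group means with SD, and every axis spans the same 4.6 log2 units, so that the wide control spread of Sox17, Cxcr4, Apoe and Kdr can be set against the narrow range of Foxa2, Ttr, Afp and Rbp4.

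Foxa1 and Foxa2 are forkhead pioneer factors that open chromatin for the endoderm programme. Foxa1 stood at 8.23, 8.13 and 8.22 in controls 1, 2 and 3 and at 8.81, 8.40 and 8.59 in induced samples 1, 2 and 3. The lowest induced array was above the highest control, and the induced sample was higher by 0.58, 0.27 and 0.37 in replicates 1, 2 and 3. The group means were 8.19 ± 0.053 (SD, n = 3) and 8.60 ± 0.20, a log2 fold change of 0.41 ± 0.11 (SE) with a 95% interval of 0.15 to 0.66, or 1.33-fold. By limma its unadjusted p was 0.0070 and its adjusted p 0.9998, and the exact permutation test of 3 against 3 samples gave 0.1, the smallest p it can give. The spread was wider in the induced samples than in the controls.

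Foxa2, needed for the node and for anterior endoderm, had a narrow range over the arrays. Its values were 10.76, 10.69 and 10.49 in the controls and 10.89, 10.70 and 10.68 in the induced samples. The groups overlapped, and their log2 difference was 0.11 ± 0.10 (SE), with an interval of -0.12 to 0.35. Without control 3 the difference was 0.037 and without induced 1 it was 0.046. The interval allows a change between 0.920-fold and 1.27-fold.

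Sox17, an HMG-box factor required for definitive endoderm, differed widely between arrays of a group, and its groups overlapped. By the brighter probe set, 1429177_x_at, it stood at 10.02, 8.29 and 10.81 in controls 1, 2 and 3 and at 9.43, 9.56 and 10.61 in induced samples 1, 2 and 3. By the other set, 1421657_a_at, the levels were 8.79, 7.81 and 9.55 in the controls and 8.33, 8.49 and 9.16 in the induced samples. Both sets were lowest in control 2 and highest in control 3, and their levels over the 6 arrays correlated at r = 0.981. The fold changes had opposite signs, at 0.16 ± 0.61 (SE) and -0.057 ± 0.42, and both intervals spanned 0, from -1.27 to 1.59 and from -1.03 to 0.92. Sets named x_at can hold probes that also match other transcripts, and the array files used here do not say which. The sign depended on 1 sample: without control 2 the fold change of the brighter set was -0.55, and without induced 3 it was -0.21, while for the other set it was 0.11 without induced 1, 0.028 without induced 2 and 0.36 without control 3.

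Hhex, a homeobox repressor of anterior endoderm and liver, had a smaller range with the same order in the controls. It stood at 9.01, 8.45 and 9.30 in controls 1, 2 and 3 and at 8.75, 8.50 and 9.34 in induced samples 1, 2 and 3. Sample 3 was the highest and sample 2 the lowest in each group, and the groups overlapped almost wholly. The log2 fold change was -0.063 ± 0.27 (SE), with an interval of -0.68 to 0.56, and turned positive without induced 2 (0.12) or control 3 (0.13).

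Cxcr4, the receptor for the chemokine Cxcl12 and a surface marker used to sort definitive endoderm, had the widest range of the members. The 3 controls stood at 10.56, 8.50 and 11.58 for replicates 1, 2 and 3, and the induced samples at 9.59, 9.25 and 10.42. Induced minus control was -0.97 in replicate 1, 0.76 in replicate 2 and -1.17 in replicate 3, so 2 of 3 pairs were lower. Group means were 10.21 ± 1.57 (SD, n = 3) and 9.75 ± 0.60, and their difference of -0.46 ± 0.71 (SE) had an interval of -2.12 to 1.21. Without control 2 the fold change was -1.32, and without control 3 it was 0.23. Cxcl12 ran against its receptor, at 9.23, 10.26 and 8.34 in the controls and 9.59, 9.80 and 8.84 in the induced samples. It was highest in control 2 and lowest in control 3. Over the 6 arrays Cxcl12 also ran against Kdr, at r = -0.988. The exact permutation p of that r was 0.181 after adjustment over all genes. An absolute r with Kdr of at least 0.9 was reached by 236 of 422 genes spanning at least 1 log2 unit. Nothing particular to ligand and receptor is therefore shown. Ackr3, the second receptor for Cxcl12, stood between 6.14 and 6.63 in all arrays.

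Apoe, which encodes a lipid-carrying apolipoprotein of visceral endoderm and many other cells, went opposite to Sox17 and Cxcr4. It stood at 10.996, 11.75 and 10.11 in controls 1, 2 and 3 and at 11.68, 11.68 and 10.72 in induced samples 1, 2 and 3. Control 2 was the highest array and control 3 the lowest, and the groups overlapped. The induced sample was higher by 0.69 in replicate 1 and by 0.60 in replicate 3 and lower in replicate 2, where the difference was -0.074. With group means of 10.95 ± 0.82 (SD, n = 3) and 11.36 ± 0.56 the log2 fold change was 0.41 ± 0.42 (SE), with an interval of -0.58 to 1.39. The block narrowed the standard error to 0.16, at an unadjusted limma p of 0.040 and an adjusted p of 0.9997. Without control 3 the fold change was -0.015, and without control 2 it was 0.80.

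Ttr, Afp and Rbp4 encode secreted carriers of thyroid hormone, of fetal serum ligands and of retinol. The brightest Ttr set, 1451580_a_at, stood at 8.84, 8.91 and 8.94 in controls 1, 2 and 3 and at 8.79, 9.22 and 8.88 in induced samples 1, 2 and 3. Only induced 2 lay above every control. The log2 fold change was 0.066 ± 0.12 (SE), and without induced 2 it was -0.061. Rbp4 stood at 7.74, 7.605 and 7.73 in the controls and 7.48, 7.612 and 7.60 in the induced samples. The groups overlapped through control 2 and induced 2, and the fold change was -0.13 ± 0.080 with an interval of -0.32 to 0.056.

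The remaining 3 Ttr sets and all 5 Afp sets lay below the lower quartile of their array in all 6 arrays. Afp stood between 5.63 and 5.68 in the controls by its brightest set, 1416646_at, and at 5.62, 5.89 and 5.66 in induced samples 1, 2 and 3. By 1436880_at it was 5.07, 4.93 and 5.06 in the controls and 5.01, 5.41 and 5.09 in the induced samples. The set 1436879_x_at read 4.26, 4.29 and 4.15, then 4.17, 4.42 and 4.32, in the same order of samples. Induced 2 was the highest array in each of these sets.
For 1436881_x_at the levels were 4.21, 4.12 and 4.22 in the controls and 4.20, 4.40 and 4.24 in the induced samples. The last Afp set, 1416645_a_at, gave 4.12, 4.04 and 4.12, then 4.20, 4.24 and 4.19, so that the induced arrays lay above the controls by a log2 fold change of 0.11 ± 0.070 (SE), at a level where the other 4 Afp sets had overlapping groups. Among the Ttr sets, 1459737_s_at read 4.70, 4.79 and 4.79 in the controls and 4.75, 5.44 and 4.86 in the induced samples, with induced 2 again far above the rest. The sets 1454608_x_at and 1455913_x_at kept within 4.99 to 5.20 and 4.003 to 4.06.

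**Figure D2:**
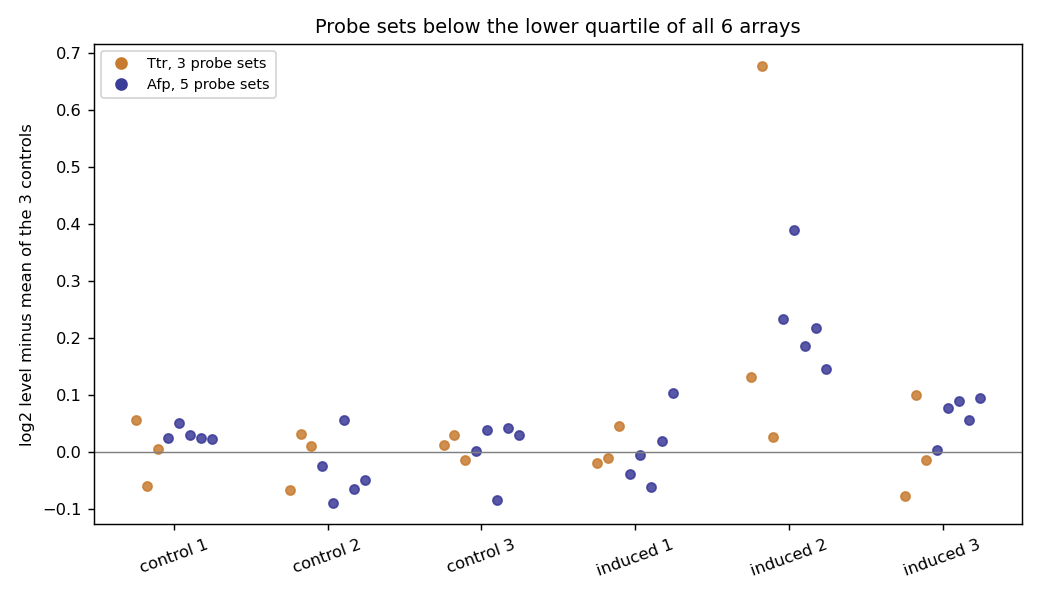
Log2 level of the 8 dim sets of Ttr and Afp in each array, minus the mean of the 3 controls; each point is 1 probe set in 1 sample. Induced 2 is the highest array for 7 of the 8 sets, and 1459737_s_at of Ttr lies farthest from the controls.

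Of these 8 dim sets 7 were highest in induced 2, as were 43.6% of the 11259 probe sets with a mean level below the lower quartile. Without induced 2 the fold change was 0.044 for 1459737_s_at, against 0.25 with it, and -0.018 for 1416646_at, against 0.066. The part of that array's raised lower quartile in the positive signs of Ttr and Afp was not tested further.

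**Figure D3:**
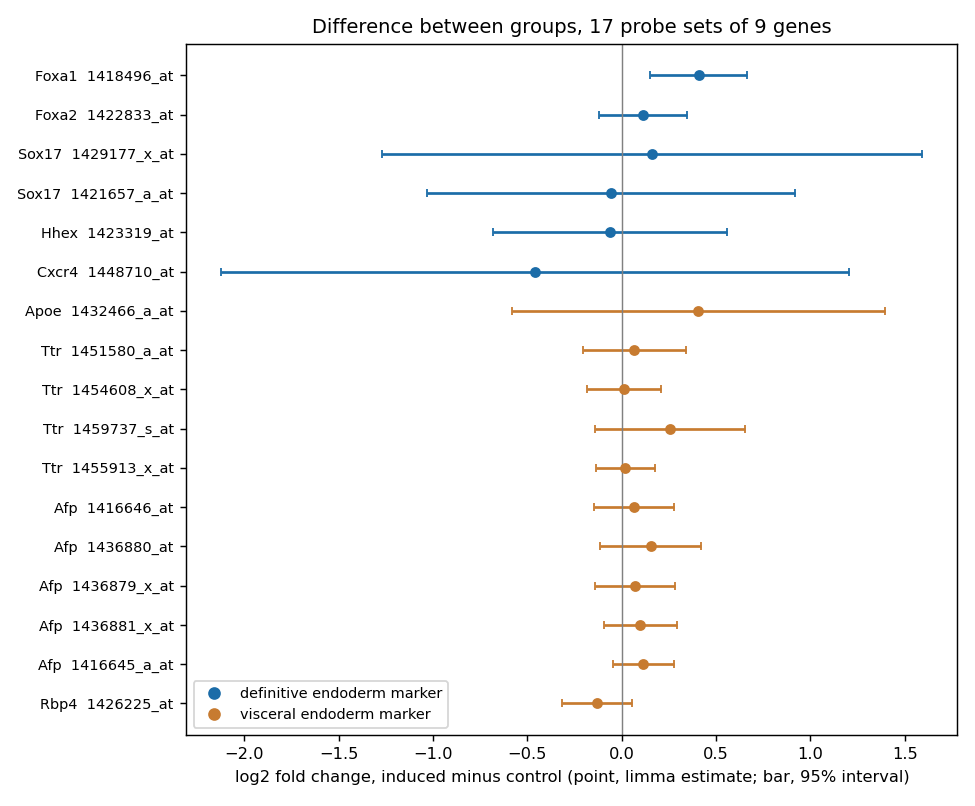
Log2 fold change, induced minus control, of the 17 probe sets of the 9 genes, with 95% intervals from limma. The interval of Foxa1 alone, 0.15 to 0.66, does not cross 0, and those of Sox17, Cxcr4 and Apoe are the widest.

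Sox17, Hhex and Cxcr4 varied with Kdr between arrays and Apoe against it, a relation looked at after the data were seen. Over the 6 arrays Sox17 correlated with Kdr at r = 0.988 (rho = 0.943), Hhex at r = 0.936 (rho = 0.943), Cxcr4 at r = 0.966 (rho = 0.943) and Apoe at r = -0.912 (rho = -0.943). The exact permutation p was 0.0056 for Sox17, Hhex and Apoe and 0.0083 for Cxcr4, and 0.0167 for each rho. Adjusted over the relations of all 18192 other genes with Kdr, these became 0.183 for Sox17, Hhex and Apoe and 0.207 for Cxcr4, with 0.270 for each rho, so none passed. An absolute r of at least 0.9 was reached by 4 of the 9 members and by 5.40% of all genes. Among genes that spanned at least 1 log2 unit, 236 of 422 (55.9%) reached it and so did all 3 members of that kind, Sox17, Cxcr4 and Apoe, and nothing particular to these markers is shown. Without controls 2 and 3, the arrays farthest from the median of Kdr, r was 0.964 for Sox17, 0.992 for Hhex, 0.877 for Cxcr4 and -0.971 for Apoe.

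The relation was as close within groups. Taken as deviations from the group means, r was 0.991 for Sox17, 0.941 for Hhex, 0.995 for Cxcr4 and -0.971 for Apoe. Foxa1 (r = 0.136, rho = 0.143, exact permutation p = 0.833 and 0.803) and Foxa2 (r = -0.459, rho = -0.486, p = 0.322 and 0.356) showed no such order, nor did Ttr (r = -0.173, rho = -0.086), Afp (r = -0.108, rho = 0.086) and Rbp4 (r = 0.435, rho = 0.257), for which the exact permutation p of r lay between 0.408 and 0.808. Kdr, the mesoderm list and the pluripotency list all varied along the same arrays, and their part in the levels of these members was not tested.

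**Figure D4:**
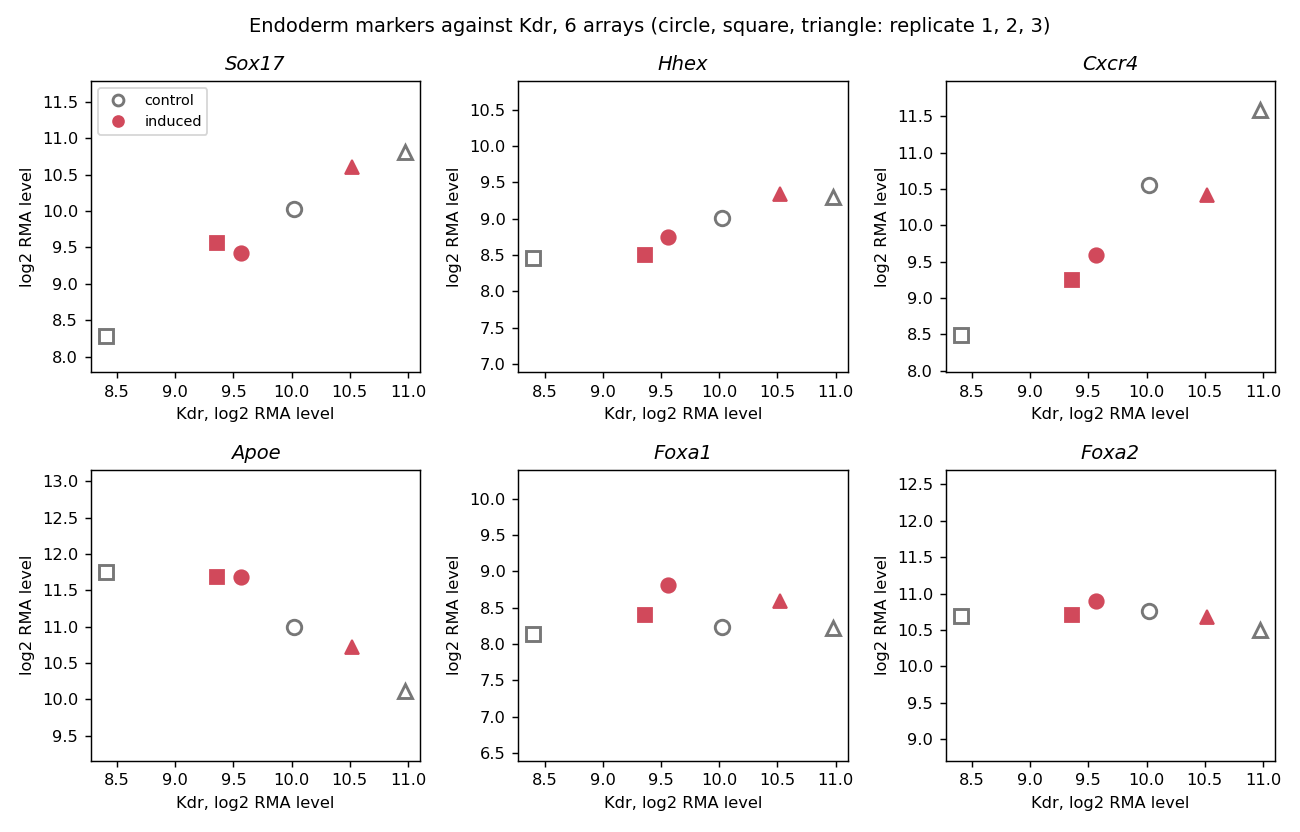
Level of 6 markers against the level of Kdr in the same array, both as log2 RMA values; open grey symbols are controls, filled red symbols induced samples, and the symbol's shape gives the replicate number. Sox17, Hhex and Cxcr4 run with Kdr and Apoe runs against it, while each induced sample sits above each control for Foxa1 and Foxa2 has a narrow range.

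Because Kdr differed so much between arrays of 1 group, the groups were also compared with the level of Kdr as a covariate, a fit chosen after the data were seen. Cxcr4 had by then been seen to vary with Kdr and Apoe against it, so smaller standard errors for both were built into this fit. Kdr was measured after the induction, and its protein was the gate of the sort. With this covariate the log2 fold change of Cxcr4 was -0.48 ± 0.10 (SE), with an interval of -0.72 to -0.23. Its standard error without the covariate was 0.71. Apoe stood at 0.42 ± 0.12, with an interval of 0.13 to 0.71, and Foxa1 at 0.41 ± 0.11, with an interval of 0.14 to 0.67. Unadjusted limma p-values were 0.0022 for Cxcr4, 0.011 for Apoe and 0.0081 for Foxa1, and these 3 of 17 sets compare with 2.86% of all probe sets under 0.05. The adjusted p was 0.9986 for every member, and 0 of 17 passed where 2 of 45036 did (0.00444%). Sox17 stayed at 0.14 ± 0.11 and -0.068 ± 0.10 by its 2 sets and Hhex at -0.069 ± 0.11, all with intervals across 0.

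The genes whose levels followed each variable member most closely were taken among the 422 other genes that also spanned at least 1 log2 unit. Only Sox17, Cxcr4 and Apoe spanned that much. Closest to Sox17 over the 6 arrays were Tgfb1i1 (r = 0.989), Kdr (r = 0.988) and Adcyap1r1 (r = 0.985). For Cxcr4 they were Pth1r (r = 0.997), a parathyroid hormone receptor and a parietal endoderm marker, Smad1 (r = 0.996), which carries BMP signals, and Grrp1 (r = 0.992). Apoe was followed by Ppm1h (r = 0.996), Sycp3 (r = 0.993) and Tpd52 (r = 0.991). These likenesses are descriptions over the same 6 arrays. Among genes of that span 236 of 422 had an absolute r of at least 0.9 with Kdr, so high values of r were common. Nothing particular to the genes named here is shown.

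The other genes of these lineages and pathways gave the same count as the members. In each of the lists named next, 0 genes passed limma's adjusted threshold with or without the block, and at an unadjusted p under 0.05 the share over all genes was 1.59%. Of 12 further definitive endoderm genes 5 had a positive and 7 a negative log2 fold change, with a median of -0.048 beside 0.0026 over all genes. Cer1, a secreted Nodal and BMP antagonist of anterior endoderm, had -0.34 ± 0.38 (SE), and Gsc, a homeobox factor of the anterior streak, 0.020 ± 0.15. At an unadjusted p under 0.05 stood 1 of them, Krt19, an epithelial keratin named after its values were seen, with controls 1, 2 and 3 at 9.72, 9.68 and 9.63 and induced samples 1, 2 and 3 at 9.90, 9.88 and 9.98. Its groups did not overlap, as in 6.79% of all genes. With the replicate block Cer1 and Fgf17, the latter named after its values were seen, were also under 0.05. Their unadjusted limma p-values were 0.046 and 0.0068, and the share over all genes with the block was 2.87%.

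Of 14 further visceral endoderm genes 8 were positive and 6 negative, with a median of 0.057. Hnf4a, a nuclear receptor that drives the visceral endoderm programme, had -0.014 ± 0.092 (SE), and Amn, part of the cubilin uptake complex, 0.19 ± 0.13. Cubn, the cubilin receptor itself and named after its values were seen, was the 1 gene at an unadjusted p under 0.05, with 6.13, 5.98 and 6.13 in the controls and 6.43, 6.17 and 6.36 in the induced samples. Non-overlapping groups were seen in 3 of the 14, with Cubn and Apoa1 higher and Rhox5 lower, these also named afterwards, beside 6.79% of all genes. Induced 2 was the highest array for 7 of the 14, beside 31.8% of all genes. Parietal endoderm genes were positive in 8 of 11, with a median of 0.022, Sox7 at 0.058 ± 0.16 and the matrix gene Sparc at 11.27 in both groups. Srgn of that list, named afterwards, had 0.61 ± 0.38 with overlapping groups. It stood at 6.06, 5.40 and 5.87 in controls 1, 2 and 3 and at 7.29, 5.72 and 6.15 in induced samples 1, 2 and 3. Only induced 1 lay far above the rest. The unadjusted limma p of Srgn was 0.019 with the block and 0.15 without it.

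Genes upstream of endoderm and partners of the members were read in the same way. In the Nodal and mesendoderm list 5 of 9 were positive, with the ligand Nodal at 0.10 ± 0.30 (SE) and the T-box factor Eomes at -0.10 ± 0.10. At an unadjusted p under 0.05 stood 1 of them, the Nodal antagonist Lefty2, at -0.57 ± 0.20 with overlapping groups and named after its values were seen. Among genes of retinol transport and retinoic acid 4 of 9 were positive, with Stra6, the receptor for Rbp4, at 0.082 ± 0.097 and Rdh10, which oxidises retinol, at -0.11 ± 0.11. The largest difference in that list, named after its values were seen, was -0.41 ± 0.26 for Crabp2, which binds retinoic acid in the cell. The unadjusted limma p of Crabp2 was 0.0099 with the block and 0.15 without it. Lipoprotein receptors and partners of Apoe were positive in 5 of 7, with Lrp1 at -0.14 ± 0.14. Of 6 genes around Cxcr4 4 were positive, with Cxcl12 at 0.13 ± 0.46 and Ackr3 at 0.11 ± 0.14.

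Markers of the other cell types that the sorted cells could hold moved as follows. Endothelial genes were positive in 10 of 13, with Cdh5 at 0.19 ± 0.14 (SE) and Pecam1 at 0.043 ± 0.12, and the mean level of the list ran from 6.64 to 6.75 in the controls and from 6.73 to 6.93 in the induced samples, so that the groups overlapped. Induced 2 was the highest array for 9 of the 13, beside 31.8% of all genes. Without induced 2, 8 of the 13 were positive, with Cdh5 at 0.036 and Pecam1 at -0.091. At an unadjusted p under 0.05 stood 2 of them, Ecscr and Rhoj, both higher and both named after their values were seen. Both had groups that did not overlap, and without induced 2 their log2 fold changes were 0.29 and 0.32. Haematopoietic genes were positive in 7 of 10, with Tal1 at 0.17 ± 0.20 and Lmo2 at 0.81 ± 0.12, and the list's mean level ran from 8.06 to 8.15 in the controls and from 8.20 to 8.32 in the induced samples. That separation rested on Lmo2: without it the other 9 genes averaged 7.998 to 8.096 in the controls and 8.055 to 8.206 in the induced samples, which overlap. Lmo2 was the 1 gene at an unadjusted p under 0.05, and Gata1, named afterwards, also had groups that did not overlap. Mesoderm genes were negative in 9 of 10, with Pdgfra at -0.32 ± 0.52 and Mesp1 at -0.26 ± 0.45. Pluripotency genes were positive in 7 of 10, with Pou5f1 at 0.23 ± 0.18 and Nanog at -0.020 ± 0.25. The part of blood or endothelial cells in the level of Foxa1 was not tested.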

How the data were processed

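The deposited table holds log2 RMA values per probe set for 6 Affymetrix arrays; the submitters' processing notes name RMA, with which background is corrected, arrays are quantile-normalized and probes are summarised by the authors. No version of it is given here, scanner files were not used here, and detection calls could not be made. Precision is limited by 3 arrays per group. Of 45101 probe sets, 64 Affymetrix controls were left out and 45037 tested. Of these 34945 had 1 gene symbol in GEO's platform annotation, 932 several and 9160 none. Levels of different probe sets are not comparable.

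Groups came from the titles. The test of induced against control was limma 3.58.1 in R 4.3.3, two-sided, with Benjamini-Hochberg adjustment over all probe sets and a threshold of 0.05, after a check on simulated data. No filter on dim sets was applied. Single values were also tested by exact permutation (scipy 1.17.1), where 3 against 3 samples cannot go below 0.1. For the lists and likeness, a gene was represented by its probe set with the highest mean. The members, the lists and the naming rule were chosen with earlier results of these data known, and the relation with Kdr and the fits using Kdr were added after the data were seen. That rule names every member probe set, Etv2, Kdr, the first 2 genes of each list in a fixed order, and the 3 closest genes of members spanning 1 log2 unit. Listed genes were 116 different symbols, of which 111 were measured.

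Replicate numbers shared by the titles were taken as pairs, since deviations from group means correlated at r = 0.246, 0.168 and 0.234 for numbers 1, 2 and 3, all above 0.1, though 2 unmatched pairs did so too (control 1 with induced 3 at 0.211, control 2 with induced 1 at 0.185), while the labels name no shared day. The block is an alternative. Others were leaving out samples, a second normalization, centring, a filter on dim sets, 1 probe set per gene, array weights and an intensity trend.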

Additional observations from a re-analysis of the deposited data

How the results depend on the processing

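Over up to 16 alternatives, of which the Kdr covariate was chosen after the data were seen, 0 member probe sets passed limma's adjusted threshold, with adjusted p from 0.965 to 1. The single call over all probe sets, outside the members, was lost with the replicate block (0 called), with each sample left out (0 to 0), without both samples of replicate 2 (0) and with arrays centred on their medians (0), and 2 were called with Kdr as a covariate. The block changed no call for a member. Foxa1 kept its sign throughout, from 0.30 to 0.51. Signs of 9 of the 17 sets turned under at least 1 alternative, and the cause was not tested. Leaving out 1 sample in turn gave -0.55 to 0.71 and -0.51 to 0.36 for the Sox17 sets 1429177_x_at and 1421657_a_at, -0.30 to 0.13 for Hhex, -1.32 to 0.23 for Cxcr4 and -0.015 to 0.80 for Apoe. It gave -0.061 to 0.15 and -0.049 to 0.055 for the Ttr sets 1451580_a_at and 1454608_x_at and -0.018 to 0.12 for the Afp set 1416646_at. Without both samples of replicate 2 the values were -0.40 for Sox17 (1429177_x_at), -0.053 and -0.082 for those Ttr sets, and -0.031 and -0.0096 for the Afp sets 1416646_at and 1436880_at. Array weights gave 0.031 for Sox17 (1421657_a_at), 0.066 for Hhex, -0.013 and -0.048 for the same Ttr sets and -0.0048 for Afp (1416646_at). For Ttr (1454608_x_at) a second quantile normalization gave -0.0035 and centring -0.0069. Dim probe sets are compressed by background, which limits what Afp and the dim Ttr sets can show.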
